A study of Mus musculus with 9 samples.

Results

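The 37 genes described here are markers of blood and lymphatic endothelium, the cells that line vessels. They were chosen by name, as widely used markers, and mapped to the gene identifiers of the count tables through GENCODE M21. All 37 were found among the 49671 genes listed. By role they fall into 18 junction and surface proteins, 5 receptor kinases, 3 transcription factors, 5 tip cell and angiogenic genes, 3 venous adhesion molecules and 3 lymphatic markers. Their levels were compared between subcutaneous flank tumours of the mouse pancreatic cancer lines KPC49bKO (KO, 2 tumours) and KPCWT (WT, 3 tumours), raised in syngeneic C57BL/6 mice, and between cultures of the same lines (KO, 2 and WT, 2). CD49b is integrin alpha 2, encoded by Itga2. The mice that carried KO tumours are not said to differ in genotype from those that carried WT tumours, so the edited gene is that of the cancer cells. Tumours were broken up into cells by enzymes before RNA was taken, and cultures were collected near confluence from serum-containing medium. Each genotype is 1 cell line, and other differences between the lines cannot be told apart from the loss of CD49b.

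Endothelial cells hold together through junction proteins such as VE-cadherin (Cdh5) and PECAM1, and respond to vascular endothelial growth factors through the receptor kinases encoded by Flt1, Kdr and Flt4, and to angiopoietins through Tek and Tie1. New vessels are led by tip cells, which express genes such as Esm1, Apln, Angpt2 and Dll4. Venules recruit leukocytes through selectins and VCAM1, and lymphatic vessels are specified by the transcription factor PROX1 and express LYVE1 and FLT4. In pancreatic cancer, vessels are known to be sparse within a dense stroma.

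Library totals ran from 16032912 to 19562695 counts in tumours and from 17738774 to 21247023 in cultures. Itga2 itself stood at 51.8 and 72.4 CPM (a gene's counts scaled to an equal library total) in KO tumours, against 139, 167 and 158 CPM in WT tumours, lower in both KO tumours although transcript remained (log2 fold change -1.32, edgeR adjusted p = 0.00602). In cultures it had 79.9 and 85.2 CPM in KO and 144 and 113 CPM in WT (log2 fold change -0.64, edgeR adjusted p = 0.0135), a call lost in 4 of 13 alternatives, among them without WT culture 1 (adjusted p = 0.173) and without KO culture 1 (adjusted p = 0.113). The KO tumours are called 1 and 3, after the numbers of their data columns. WT tumours 1 and 2 were much more alike than any other pair of replicates, with a mean chi-square per gene of 6.0 against 23.0 or more. The labels call the replicates biological, but how separate WT tumours 1 and 2 are was not tested, and p-values measure the spread between these libraries. A pair of tumours stood apart in endothelial markers: WT tumour 3 was the highest of the 5 for 30 of the 37 genes, and KO tumour 1 was the lowest for 27. Results that rest on these libraries are given with and without them where the value moved most.

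The markers were first set against cultured cancer cells, which contain no host vessels. Of the 37 genes, 24 stayed under 1 CPM in every culture, and 8 of those had no count there at all: Cldn5, Emcn, Vwf, Robo4, Erg, Esm1, Lyve1 and Mmrn1. For 26 genes every tumour lay above every culture, on CPM scaled within each setting and equally on plain library totals. Pecam1, a junction adhesion molecule, had 10.3 and 23.1 CPM in KO tumours and 24.4, 18.2 and 40.3 CPM in WT tumours, while no culture was above 0.165 CPM. The summed level of the 24 genes was 102 and 178 CPM in KO tumours and 189, 157 and 375 CPM in WT tumours, against 1.82 to 4.01 CPM in the 4 cultures. Setting and batch label are the same in this series, so tumours and cultures were compared by level only, without a test.

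The other 13 genes reached at least 1 CPM in a culture: Esam, Cd34, Podxl, Ptprb, Ecscr, Egfl7, Rasip1, Ly6c1, Flt1, Flt4, Angpt2, Selp and Vcam1. In bulk tumour RNA their signal can come from cancer cells as well as from vessels, and the shares of the 2 sources were not measured. Angpt2, which encodes a context-dependent ligand of Tek, was as high in WT cultures as in WT tumours, at 9.31 and 12 CPM in cultures beside 7.54, 7.46 and 8.86 CPM in tumours. Vcam1, an adhesion molecule for leukocytes, had 116 and 127 CPM in KO cultures and 121 and 133 CPM in WT cultures. It was also the most abundant member in tumours per length of exon, at a mean of 65.2 CPM per kb, and made up from 36.6% to 65.0% of the summed CPM of all 37 genes. Podxl, a sialomucin of vessel and epithelial surfaces, followed at 19.0 CPM per kb and Plvap, the diaphragm protein of fenestrated vessels, at 12.2 CPM per kb. The lowest were Prox1, Mmrn1 and Sele, at 0.07, 0.0476 and 0.0412 CPM per kb.

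**Figure D1:**
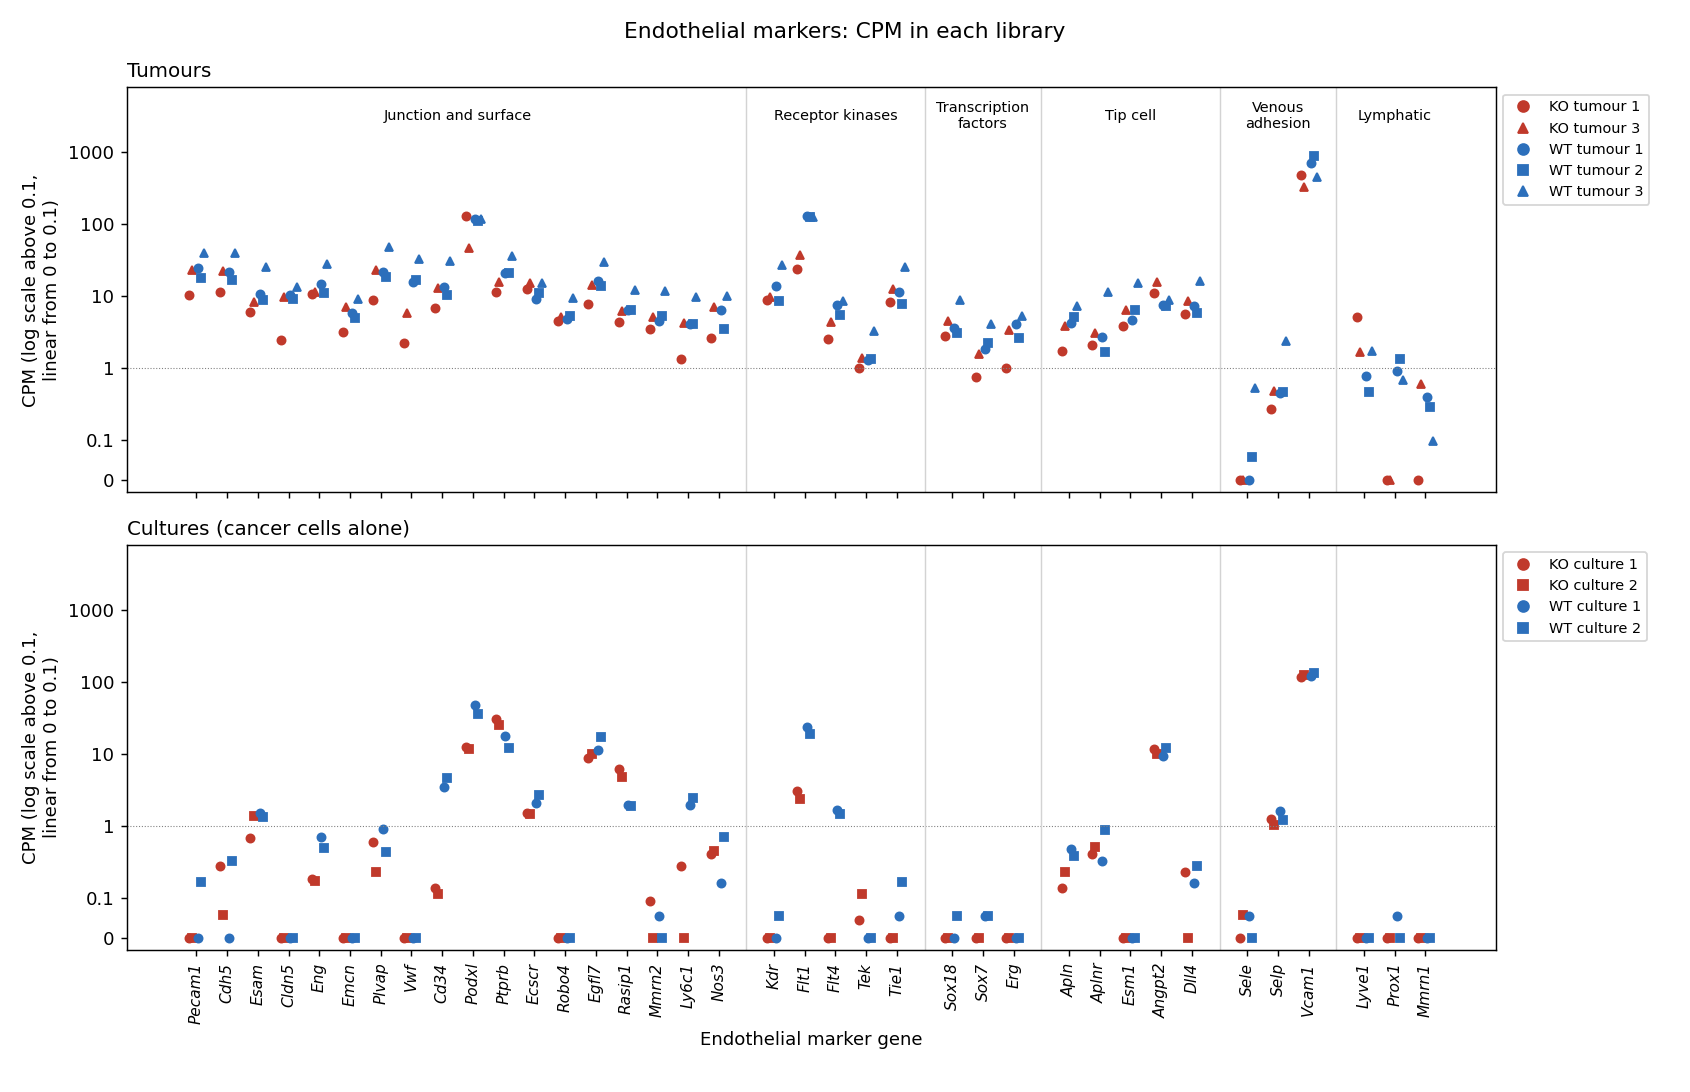
CPM of each of the 37 markers (vertical axis, logarithmic above 0.1 and linear below) in each tumour (upper panel) and each culture (lower panel), grouped by role, with KO in red and WT in blue. The 24 genes under the dotted line at 1 CPM in every culture include Pecam1, Cdh5, Tie1 and Kdr, while Vcam1, Podxl, Ptprb and Angpt2 are also high in cultured cells.

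In tumours, 3 endothelial markers were lower in KO and none passed the test as higher. The steadiest difference was in Flt1, a receptor for VEGF-A and placental growth factor, at 30.8 ± 9.91 CPM in KO tumours and 128 ± 3.78 CPM in WT tumours (SD, n = 2 and 3). Vwf, the clotting factor stored in endothelial granules, had 4.02 ± 2.52 CPM in KO tumours and 21.8 ± 9.66 CPM in WT tumours. Prox1 was not detected in KO tumours and averaged 0.979 ± 0.331 CPM in WT tumours. Most pan-endothelial genes, Pecam1, Cdh5, Tie1, Tek, Kdr, Emcn and Robo4 among them, had fold changes below 0 that did not pass the test.

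Of the 37 markers, 34 passed the filter on low counts in tumours, and Sele, Selp and Mmrn1 did not. With the quasi-likelihood test of edgeR and an adjusted p threshold of 0.05 over all genes, 3 of the 34 were called lower (8.82%), where 10.9% of all 16257 genes tested were called lower and 19.7% were called in either direction. None was called higher, where 8.78% of all genes were. At an unadjusted p under 0.05, edgeR gave 6 members lower and 2 higher (Angpt2 and Lyve1). Angpt2 was called higher by DESeq2, which called 25.7% of all genes, and in 1 fit of all 9 libraries, Lyve1 was called higher without the filter, and limma-voom called no member higher. Below 0 were 31 of the 34 fold changes, against 50.3% of all genes, and the median log2 fold change was -0.78, against -0.01 over all genes. Every KO tumour lay below every WT tumour for 9 of the 34 (26.5%), a share close to the 27.5% of all genes.

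That median moved with the libraries that stood apart. It was -0.30 when WT tumour 3 was left out, -0.47 when KO tumour 1 was, and -1.19 when KO tumour 3 was. With both KO tumour 1 and WT tumour 3 left out, an alternative chosen after seeing the data in which the single KO tumour is assumed to vary like the others, the median was 0.04 and 15 of 35 fold changes lay below 0. The log2 fold changes there were -1.76 for Flt1 and -1.48 for Vwf. Prox1 passed the filter on low counts only through the WT tumours, so that fit is not separate support for it. The levels are per library of dissociated tumour cells, in which fewer endothelial cells and less RNA per endothelial cell cannot be told apart.

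**Figure D2:**
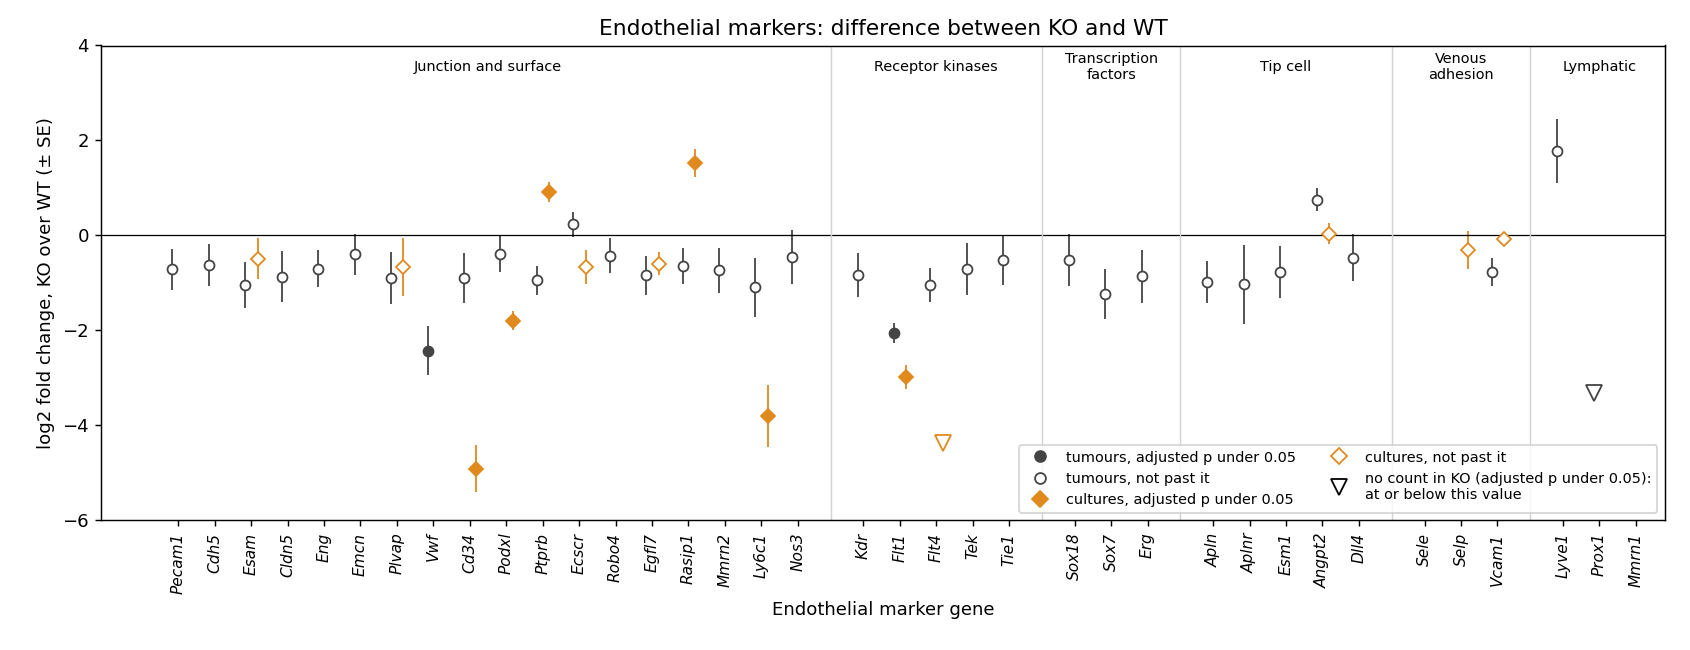
Log2 fold change of KO over WT with its SE (vertical axis) for each marker in tumours (circles) and cultures (diamonds), filled where the edgeR adjusted p was under 0.05. Triangles mark Prox1 in tumours and Flt4 in cultures, which had no count in KO and are drawn at their bound. In tumours the points of most roles lie a little below 0, and Flt1, Vwf and Prox1 lie well below the rest.

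Among the 18 junction and surface genes, which include most pan-endothelial markers, Vwf alone was called in tumours. It had 2.24 and 5.80 CPM in KO tumours, against 15.9, 16.7 and 33.0 CPM in WT tumours. The groups did not overlap, and the highest KO tumour was well under the lowest WT tumour. The gene (chromosome 6, 125546774 to 125686679 on GRCm38) had a log2 fold change of -2.43 (SE 0.52, edgeR adjusted p = 0.0224). The call was lost without KO tumour 1 (log2 fold change -1.90, edgeR adjusted p = 0.0746) and without WT tumour 2 (log2 fold change -2.60, edgeR adjusted p = 0.0545). No culture held a count of Vwf.

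The remaining 17 junction and surface genes spanned -1.10 (Ly6c1) to 0.23 (Ecscr) on the log2 scale. Pecam1, at the CPM given above, overlapped between the genotypes, with KO tumour 3 above WT tumour 2, and its log2 fold change was -0.72 (SE 0.44, edgeR adjusted p = 0.285). Cdh5 had 11.6 and 22.6 CPM in KO tumours, against 21.9, 16.8 and 40.5 CPM in WT tumours (log2 fold change -0.62, SE 0.44, edgeR adjusted p = 0.352). As with Pecam1, KO tumour 3 was level with WT tumours 1 and 2, KO tumour 1 was lowest and WT tumour 3 highest. Without KO tumour 1 and WT tumour 3 the log2 fold changes were 0.12 for Pecam1 and 0.23 for Cdh5.

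The same arrangement of libraries was seen for Cldn5, a claudin of endothelial tight junctions, at 2.45 and 9.71 CPM in KO tumours and 10.6, 9.26 and 13.5 CPM in WT tumours. It was also seen for Plvap, at 8.83 and 23.1 CPM in KO tumours and 22.0, 18.4 and 49.2 CPM in WT tumours. Emcn, a sialomucin of venous and capillary endothelium, had 3.19 and 7.02 CPM in KO tumours and 5.95, 5.07 and 9.20 CPM in WT tumours. None of the 3 passed the edgeR test, with adjusted p = 0.297, 0.286 and 0.548. Eng, a co-receptor for BMP9, was steadier in KO, at 10.9 and 11.4 CPM, against 14.7, 11.2 and 28.5 CPM in WT tumours, and the groups overlapped. Robo4, Egfl7, Mmrn2, Nos3, Cd34 and Ly6c1 overlapped as well, each highest in WT tumour 3, with log2 fold changes from -1.10 (Ly6c1) to -0.43 (Robo4) and none called.

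Esam and Ptprb were the junction genes, beside Vwf and Rasip1, whose KO tumours all lay below the WT tumours. Esam, a tight junction adhesion molecule, had 6.11 and 8.30 CPM in KO tumours, against 10.8, 8.80 and 25.2 CPM in WT tumours (log2 fold change -1.05, edgeR adjusted p = 0.174). Ptprb, the phosphatase VE-PTP that acts on Tek and VE-cadherin, had 11.6 and 15.6 CPM in KO tumours, against 21.1, 20.9 and 36.9 CPM in WT tumours (log2 fold change -0.95, SE 0.31, edgeR adjusted p = 0.0766). The call of Ptprb turned on the settings: it was lower with DESeq2, without a filter and in 1 fit of all 9 libraries. Ecscr, an endothelial surface protein, was the only junction gene with a fold change above 0, at 12.8 and 15.2 CPM in KO tumours and 9.29, 11.3 and 15.4 CPM in WT tumours, with overlapping groups. Cultures also held 1.48 to 2.69 CPM of Ecscr.

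Podxl differed between the 2 KO tumours more than between genotypes. It had 129 and 46.3 CPM in KO tumours, against 117, 112 and 118 CPM in WT tumours. KO tumour 1 was the highest of the 5 and KO tumour 3 the lowest. The log2 fold change of -0.40 (edgeR adjusted p = 0.487) became -1.30 without KO tumour 1, where it was called (edgeR adjusted p = 0.00624), and 0.17 without KO tumour 3.

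The 5 receptor kinases were led by Flt1. The promoters of the 3 VEGF receptor genes are shown because these receptors share ligands and co-receptors and moved unequally, with Flt1 called lower in tumours and cultures, Flt4 called lower in cultures and Kdr not called. Of the 37 genes, 21 had an entry in the RefSeq promoter table of GRCm38.p6, each from 250 bases before to 50 after a start. Capitals mark GGAAGT or, on the other strand, ACTTCC, letters that ETS family factors such as ERG can bind. They were searched on both strands and occur in 7 of the 21 members (33.3%) and in 23.7% of the 32544 promoters in the table. Among the 7 are Egfl7 and Mmrn1, whose RefSeq starts lie 1069 and 19341 bases from their GENCODE starts. No enrichment is read from these shares. A match is a description of these letters and does not show a site in use.
Flt1 promoter, chr5:147725962-147726261, minus strand: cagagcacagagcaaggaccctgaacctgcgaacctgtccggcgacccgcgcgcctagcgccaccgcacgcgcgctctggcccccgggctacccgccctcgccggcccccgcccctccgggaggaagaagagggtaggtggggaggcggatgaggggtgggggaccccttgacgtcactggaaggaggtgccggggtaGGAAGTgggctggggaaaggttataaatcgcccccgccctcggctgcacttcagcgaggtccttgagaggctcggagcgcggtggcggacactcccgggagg
Kdr promoter, chr5:75978406-75978705, minus strand: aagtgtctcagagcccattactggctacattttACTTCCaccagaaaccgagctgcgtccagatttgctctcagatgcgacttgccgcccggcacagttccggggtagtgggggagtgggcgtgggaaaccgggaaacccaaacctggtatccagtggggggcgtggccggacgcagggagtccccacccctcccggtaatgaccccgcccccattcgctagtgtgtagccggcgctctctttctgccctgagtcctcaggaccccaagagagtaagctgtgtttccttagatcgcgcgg
Flt4 promoter, chr11:49609429-49609728, plus strand: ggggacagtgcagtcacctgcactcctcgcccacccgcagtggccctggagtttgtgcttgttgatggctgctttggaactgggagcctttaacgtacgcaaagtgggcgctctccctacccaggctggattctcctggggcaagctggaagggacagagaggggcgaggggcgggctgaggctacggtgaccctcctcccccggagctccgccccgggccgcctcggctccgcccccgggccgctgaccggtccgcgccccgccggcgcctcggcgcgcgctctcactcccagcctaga
The Flt1 and Kdr windows held 1 match each, and the Flt4 window, whose RefSeq start lies 416 bases from the GENCODE start, held none.

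Flt1 (chromosome 5, 147561604 to 147726011) had 23.8 and 37.8 CPM in KO tumours, against 132, 125 and 128 CPM in WT tumours. The WT tumours were nearly equal, WT tumour 3 included, and both KO tumours were far below them. The log2 fold change was -2.06 (SE 0.21, edgeR adjusted p = 0.00289). It was called in all 15 alternatives run for tumours, and ranged from -2.42 to -1.75 as single libraries were left out. Flt1 was also lower in KO cultures, as described further on, a setting with no vessels.

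Kdr, the main signalling receptor for VEGF-A and nearly silent in cultures (at most 0.0549 CPM), did not follow Flt1. It had 8.97 and 9.65 CPM in KO tumours, against 13.8, 8.68 and 27.4 CPM in WT tumours. WT tumour 2 lay below both KO tumours, and the log2 fold change of -0.84 (SE 0.47) did not pass (edgeR adjusted p = 0.248). Flt4, the VEGF-C receptor of lymphatic and sprouting endothelium, had 2.58 and 4.40 CPM in KO tumours, against 7.65, 5.48 and 8.66 CPM in WT tumours. These groups did not overlap, and the log2 fold change of -1.05 (SE 0.36) missed the threshold (edgeR adjusted p = 0.0856), though it passed with DESeq2 and without KO tumour 3 (log2 fold change -1.48, edgeR adjusted p = 0.0453).

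The angiopoietin receptors overlapped between genotypes. Tie1 had 8.29 and 12.6 CPM in KO tumours, against 11.4, 7.87 and 25.9 CPM in WT tumours (log2 fold change -0.53, edgeR adjusted p = 0.497). Tek had 1.02 and 1.40 CPM in KO tumours, against 1.30, 1.34 and 3.30 CPM in WT tumours (log2 fold change -0.71, edgeR adjusted p = 0.395). For both, WT tumour 3 was far above the other 4 tumours. Without it, the log2 fold change of Tie1 was 0.10 and that of Tek -0.14.

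The 3 endothelial transcription factors were low in KO tumour 1 and high in WT tumour 3. Sox18, which acts in vessel and lymphatic development, had 2.79 and 4.58 CPM in KO tumours, against 3.68, 3.09 and 9.01 CPM in WT tumours. Sox7, its relative, had 0.747 and 1.59 CPM in KO tumours, against 1.87, 2.27 and 4.18 CPM in WT tumours, with no overlap. Erg, an ETS factor that maintains endothelial identity, had 1.02 and 3.42 CPM in KO tumours, against 4.14, 2.68 and 5.37 CPM in WT tumours. None of the 3 passed the edgeR test (adjusted p = 0.532, 0.148 and 0.319). No culture exceeded 0.0549 CPM for any of them.

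Tip cell genes did not move together. Esm1, a proteoglycan secreted by tip cells, had 3.87 and 6.47 CPM in KO tumours, against 4.76, 6.41 and 15.5 CPM in WT tumours. Dll4, the Notch ligand of tip cells, had 5.64 and 8.67 CPM in KO tumours, against 7.31, 5.83 and 16.5 CPM in WT tumours. In both, KO and WT overlapped and WT tumour 3 alone stood out (edgeR adjusted p = 0.356 and 0.532). Without it, their log2 fold changes were -0.12 for Esm1 and 0.11 for Dll4. Apln, the peptide ligand of the apelin receptor, had 1.77 and 3.85 CPM in KO tumours, against 4.31, 5.19 and 7.33 CPM in WT tumours (log2 fold change -0.99, edgeR adjusted p = 0.154). Aplnr, its receptor, had 2.11 and 3.11 CPM in KO tumours, against 2.72, 1.69 and 11.5 CPM in WT tumours, so the mean of WT rested on WT tumour 3, without which the log2 fold change of -1.03 became 0.23.

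Angpt2 ran the other way. It had 11.1 and 15.7 CPM in KO tumours, against 7.54, 7.46 and 8.86 CPM in WT tumours. Both KO tumours lay above all WT tumours, and Angpt2 was the only tested member for which this held, where 25.7% of all genes did so. The log2 fold change of 0.75 (SE 0.24) did not pass (edgeR adjusted p = 0.0733), but did with DESeq2, in 1 fit of all 9 libraries and without KO tumour 1 (log2 fold change 0.99, edgeR adjusted p = 0.049). Cultures held 9.31 to 12 CPM with no difference detected between the lines (log2 fold change 0.03, SE 0.22, edgeR adjusted p = 0.947).

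Venous adhesion rested almost wholly on Vcam1. It had 478 and 332 CPM in KO tumours, against 718, 899 and 462 CPM in WT tumours. WT tumour 3, the highest tumour for most endothelial genes, was here the lowest WT tumour and fell between the KO tumours. The log2 fold change was -0.77 (SE 0.30, edgeR adjusted p = 0.115). Without WT tumour 3 it was -1.02 and was called (edgeR adjusted p = 0.0362).

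The selectins were barely measured. Sele, E-selectin, had no count in either KO tumour or in WT tumour 1, 1 count in WT tumour 2 and 11 counts in WT tumour 3. Selp, P-selectin of endothelial granules and platelets, had 0.272 and 0.488 CPM in KO tumours, against 0.453, 0.466 and 2.41 CPM in WT tumours. Cultures held more Selp than all but 1 tumour, at 1.24 and 1.03 CPM in KO and 1.62 and 1.21 CPM in WT. Neither selectin entered the test in tumours.

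The lymphatic markers split. The promoter of Prox1 is shown because Prox1 was the only member with counts in every WT tumour and none in KO tumours. Its window held no match to the letters searched, and its RefSeq start lies 113 bases from the GENCODE start.
Prox1 promoter, chr1:190170778-190171077, minus strand: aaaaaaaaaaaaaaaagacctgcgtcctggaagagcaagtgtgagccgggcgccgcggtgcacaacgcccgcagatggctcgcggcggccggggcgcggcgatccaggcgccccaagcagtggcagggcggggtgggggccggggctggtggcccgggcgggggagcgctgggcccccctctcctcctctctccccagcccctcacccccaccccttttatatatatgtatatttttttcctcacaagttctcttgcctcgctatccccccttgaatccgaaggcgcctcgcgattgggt

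Prox1 (chromosome 1, 190118035 to 190170714) had 0 counts in both KO tumours and 16, 23 and 14 counts in the WT tumours, or 0.907, 1.34 and 0.689 CPM. A floor of 3 counts over the KO tumours (0.0965 CPM) puts the difference at at least 9.97-fold lower in KO (edgeR adjusted p = 0.014). The gene remained called whichever single WT tumour was left out (edgeR adjusted p from 0.0261 to 0.0454). With the replicate number as a block it was not (edgeR adjusted p = 0.0517). Prox1 passed the filter on low counts only through the WT tumours, so these fits are not separate support for its call. Under a stricter filter, which asked for 1 CPM throughout a group, it was not tested. Its exons overlap those of an antisense RNA, Prox1os, over 1.59% of their length.

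Lyve1, the hyaluronan receptor of lymphatic endothelium and of some macrophages, had 5.23 and 1.71 CPM in KO tumours, against 0.793, 0.466 and 1.72 CPM in WT tumours. KO tumour 1 alone was high, and KO tumour 3 matched WT tumour 3. The log2 fold change of 1.78 (SE 0.67) did not pass (edgeR adjusted p = 0.108), and was 0.78 without KO tumour 1. Mmrn1, multimerin 1 of lymphatic endothelium and platelets, had 0 and 10 counts in KO tumours and 7, 5 and 2 counts in WT tumours. Pdpn, podoplanin, which lymphatic endothelium shares with fibroblasts and other cells, is not a member of the set. It was lower in KO, at 0.204 and 0.183 CPM against 2.10, 4.02 and 5.66 CPM in WT tumours (log2 fold change -4.30, SE 0.64, edgeR adjusted p = 0.00801). Of the other 7 lymphatic genes listed with it 3 were tested in tumours and none was called, and Ccl21a had no count.

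To set markers against the amount of endothelial transcript, each gene's counts were divided by the summed counts of 8 core genes of the same tumour: Pecam1, Cdh5, Tie1, Tek, Esam, Robo4, Ecscr and Emcn. The core sum was 57.9 and 95.5 CPM in KO tumours, against 89.9, 74.8 and 169 CPM in WT tumours, a KO to WT ratio of means of 0.689. KO tumour 3 was above WT tumours 1 and 2. The ratio was 0.931 without WT tumour 3 and 0.857 without KO tumour 1. These are descriptions, with no test.

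Relative to the core, Flt1 stood at 41.0% and 39.6% in KO tumours, against 147%, 167% and 75.7% in WT tumours. Vwf stood at 3.87% and 6.07% in KO tumours, against 17.6%, 22.3% and 19.5% in WT tumours. Both remained apart, and the Vwf share was nearly even over the WT tumours although their Vwf levels were not. Kdr, at 15.5% and 10.1% in KO tumours against 15.4%, 11.6% and 16.2% in WT tumours, overlapped. So did Sox18, at 4.81% and 4.80% in KO tumours and 4.10%, 4.13% and 5.32% in WT tumours, and Dll4, at 9.73% and 9.08% in KO tumours and 8.13%, 7.79% and 9.77% in WT tumours. Angpt2 was higher in KO tumours by this measure, at 19.1% and 16.4% against 8.38%, 9.97% and 5.23% in WT tumours.

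Of the 29 members outside the core, 11 were below all WT tumours in both KO tumours on this ratio, 2 (Angpt2 and Lyve1) were above, and 16 overlapped. Over all genes tested, 7.74% were below and 20.3% above, where without division by the core 27.5% were below and 25.7% above. The mean core sum was lower in KO tumours, so the division raises genes that do not follow the core. The shares of all genes are therefore not a like-for-like measure for the 29, and no depletion is read from them. Sele, Selp and Mmrn1, among the 29, were also not tested in tumours. The 11 were Plvap, Vwf, Cd34, Ptprb, Egfl7, Ly6c1, Flt1, Flt4, Sox7, Apln and Prox1, of which Cd34, Ptprb, Egfl7, Ly6c1, Flt1 and Flt4 are also expressed by the cultured cells.

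By class, the log2 ratio of KO to WT relative to the core was -1.34 for the receptor kinases (Kdr, Flt1 and Flt4), of whose counts Flt1 held 82.1%. For Kdr, the only one of them under 1 CPM in cultures, it was -0.19. It was -0.19 for the 12 junction and surface genes outside the core, or -0.53 for the 6 of them under 1 CPM in cultures, and -0.29 for the transcription factors and -0.26 for the venous adhesion genes. Tip cell genes stood at 0.29, or -0.13 without Angpt2, which cultured cells express. Lymphatic genes stood at 1.14, of whose counts Lyve1 held 67.8%, and at 0.19 without KO tumour 1. The sign of the junction and venous ratios turned as single tumours were left out, to 0.29 and 0.36 at the highest. For junction, venous and lymphatic genes the tumours of the 2 genotypes overlapped. The summed counts of the 6 junction genes under 1 CPM in cultures were below all WT tumours in both KO tumours. Taken singly, only Plvap and Vwf of the 6 were, while Cldn5, Eng, Mmrn2 and Nos3 overlapped. The other classes did not overlap as whole classes, with tip cell genes above and receptor kinases and transcription factors below in KO. Kdr alone, and the tip cell genes without Angpt2, did overlap. Of the transcription factors taken singly, only Sox7 lay below, while Sox18 and Erg overlapped.

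**Figure D3:**
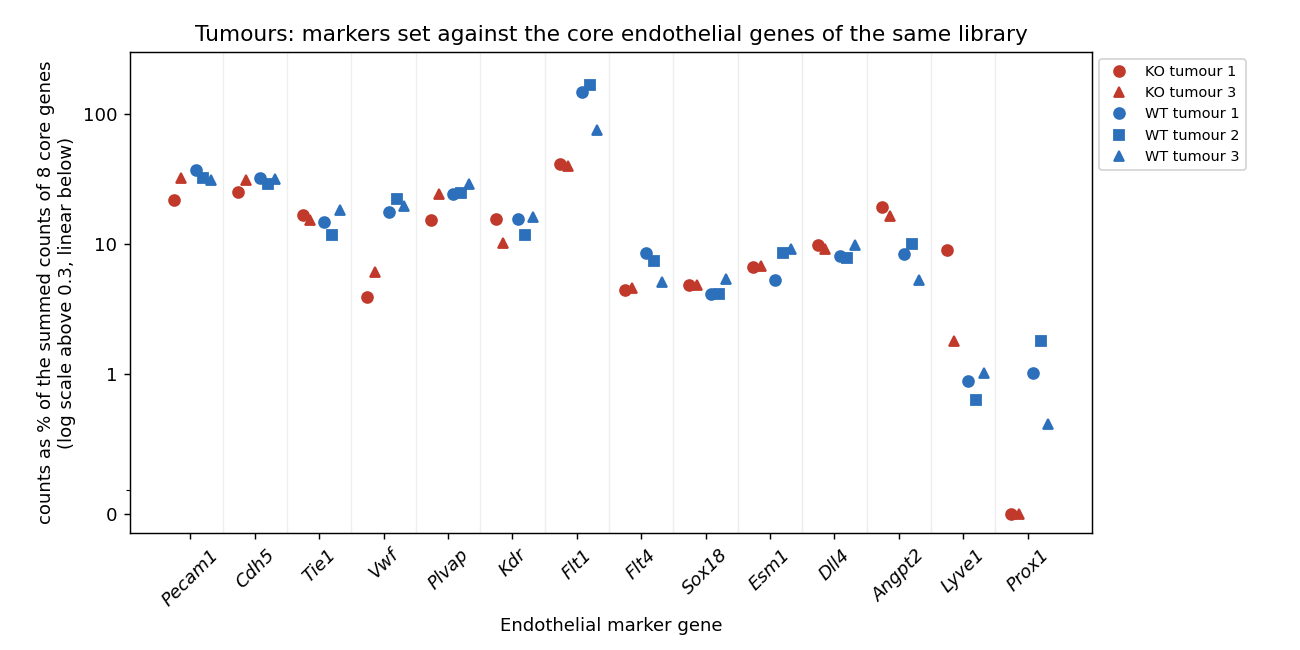
Counts of 14 markers as a percentage of the summed counts of 8 core endothelial genes (vertical axis, logarithmic above 0.3 and linear below) in each tumour, with KO in red and WT in blue (for Pecam1, Cdh5 and Tie1 the other 7 core genes). Flt1, Vwf and Prox1 lie lower in KO, Angpt2 lies higher, and Kdr, Sox18, Esm1 and Dll4 overlap.

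The cultures show which markers differ between the cancer lines themselves. Flt1, Cd34, Flt4, Podxl and Ly6c1 were lower in KO cells, and Ptprb and Rasip1 were higher. Flt1 had 3.04 and 2.34 CPM in KO cultures, against 24.1 and 18.8 CPM in WT cultures, and Podxl 12.6 and 11.7 CPM in KO cultures, against 48.7 and 35.8 CPM in WT cultures. Cd34, a sialomucin of endothelial and progenitor cells, nearly vanished, at 0.138 and 0.114 CPM in KO cultures against 3.46 and 4.62 CPM in WT cultures. None of these cultures contained endothelium by its defining markers, which stayed under 1 CPM apart from Esam and Ecscr.

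Of the 37 markers, 14 were tested in cultures. By edgeR 5 of the 14 were lower (35.7%) and 2 higher (14.3%). Over all 13573 genes 16.2% were lower, 9.27% higher and 25.5% called in either direction. Cd34, Flt4 and Ly6c1 passed the filter on low counts only through the WT cultures. The share called lower is therefore not read as a result about the markers. Flt1 had a log2 fold change of -2.99 (SE 0.25, edgeR adjusted p = 2.96e-06), Podxl of -1.80 (SE 0.20, adjusted p = 3.5e-05) and Cd34 of -4.92 (SE 0.50, adjusted p = 1.5e-05). Flt4 had no count in KO cultures and 1.68 and 1.48 CPM in WT cultures. It was at least 20.7-fold lower in KO against a floor of 3 counts over the group (edgeR adjusted p = 0.000159). Ly6c1, a surface protein of vessels and monocytes, had 0.276 and 0 CPM in KO cultures and 1.95 and 2.47 CPM in WT cultures (log2 fold change -3.81, SE 0.66, edgeR adjusted p = 0.00102). Ly6c1 has a near-identical neighbour, Ly6c2, and how reads shared by both were counted is not given in the sources used here.

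Ptprb and Rasip1 were higher in KO cultures. Ptprb had 30.8 and 25.5 CPM in KO cultures, against 17.6 and 12.3 CPM in WT cultures (log2 fold change 0.91, SE 0.21, edgeR adjusted p = 0.00691). Ptprb no longer passed once WT culture 2 was left out (edgeR adjusted p = 0.0688). Rasip1, a regulator of endothelial lumen formation through small GTPases, had 6.22 and 4.73 CPM in KO cultures, against 1.95 and 1.87 CPM in WT cultures (log2 fold change 1.52, SE 0.30, edgeR adjusted p = 0.00224). Rasip1 shares 20.4% of its exon bases with Izumo1 on the same strand, so part of its count is uncertain. The other 7 tested were Esam, Plvap, Ecscr, Egfl7, Angpt2, Selp and Vcam1, whose log2 fold changes ran from -0.67 to 0.03. Vcam1 did not differ detectably (log2 fold change -0.07, SE 0.15, edgeR adjusted p = 0.783).

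Whether the lines differed in tumours by as much as in cultures was tested for 35 of the 37 markers. The difference of the effects was called for 4 of the 35, 2 above 0 (Cd34 and Flt4) and 2 below (Ptprb and Rasip1). Over all 16793 genes 5.69% were called, 4.15% above 0 and 1.54% below. Of the 35, 13 passed the filter in both settings, the 4 among them. Cd34 and Flt4 passed it in cultures only through the WT cultures. With the test restricted to the 13147 genes that passed in both settings, 4 of the 13 members were called. Of those genes 8.39% were called, 5.48% above 0 and 2.91% below. Ptprb and Rasip1, higher in KO cultures, had fold changes below 0 in tumours that were not called there, with differences of -1.88 (SE 0.41, edgeR adjusted p = 0.0249) and -2.18 (SE 0.53, edgeR adjusted p = 0.038) on the log2 scale. Rasip1 had 4.35 and 6.35 CPM in KO tumours, against 6.46, 6.41 and 12.1 CPM in WT tumours. Cd34 was lower in KO in cultures far more than in tumours, where it had 6.79 and 12.9 CPM in KO and 13.7, 10.5 and 30.9 CPM in WT (difference 4.01, SE 0.92, edgeR adjusted p = 0.0293). Flt4 was called too (edgeR adjusted p = 0.00909), with a fitted size that depends on its lack of counts in KO cultures. For Flt1 the difference was 0.91 and was not called (edgeR adjusted p = 0.135). All 4 calls were lost without KO culture 1.

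The ligands of these receptors were listed with their co-receptors and with other angiogenic factors, 21 genes in all. In tumours 19 were tested, 7 were lower and 1 was higher in KO, beside 10.9% lower and 8.78% higher over all genes. Vegfc, the ligand of FLT4 and a driver of lymphatic growth, had 0.34 and 1.28 CPM in KO tumours, against 17.8, 15.6 and 10.2 CPM in WT tumours (log2 fold change -4.13, SE 0.56, edgeR adjusted p = 0.00595). The groups were far apart. In cultures Vegfc had 1 count in KO and 52 in WT, a ratio of 0.018 with a 95% counting interval from 0.000446 to 0.105 (exact binomial, counting error only; edgeR adjusted p = 0.000379).

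The neuropilins, co-receptors of the VEGF receptors, were lower as well. Nrp1 had 6.18 and 10.5 CPM in KO tumours, against 27.1, 35.6 and 31.8 CPM in WT tumours (log2 fold change -1.91, SE 0.27, edgeR adjusted p = 0.00657). Nrp2 had 85.9 and 83.6 CPM in KO tumours, against 183, 200 and 217 CPM in WT tumours (log2 fold change -1.24, SE 0.12, edgeR adjusted p = 0.00277). Neither overlapped between genotypes. Nrp2 was also lower in KO cultures (log2 fold change -0.58, edgeR adjusted p = 0.0356), a call lost in 4 of 13 alternatives, among them without WT culture 1 (-0.39, adjusted p = 0.284) and without KO culture 2 (-0.44, adjusted p = 0.256). Cultures held at most 1.19 CPM of Nrp1.

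Vegfa, the main vascular growth factor, had 248 and 309 CPM in KO tumours, against 685, 621 and 332 CPM in WT tumours, and did not pass (log2 fold change -0.97, SE 0.31, edgeR adjusted p = 0.0715). WT tumour 3 was close to the KO tumours here, although it had the most endothelial transcript. Pgf, which encodes placental growth factor, the FLT1 ligand, was also chosen after its values were seen. It had 3.53 and 3.24 CPM in KO tumours, against 14.6, 16.5 and 5.32 CPM in WT tumours (log2 fold change -1.84, SE 0.51, edgeR adjusted p = 0.0485). The tumour call was lost without any one of KO tumours 1 and 3 and WT tumours 1 and 2, with adjusted p from 0.126 to 0.151. In cultures Pgf was lower in KO too, at 3.45 and 3.14 CPM against 18.7 and 20.9 CPM in WT (log2 fold change -2.58, SE 0.22, edgeR adjusted p = 4.2e-06).

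Angptl4, an angiopoietin-like inhibitor of lipoprotein lipase, was the gene of this list that was higher. It had 67.0 and 71.9 CPM in KO tumours, against 27.2, 24.6 and 26.2 CPM in WT tumours (log2 fold change 1.42, SE 0.12, edgeR adjusted p = 0.00152). In cultures it was at 159 and 139 CPM in KO and 142 and 168 CPM in WT, and the difference between settings was called (1.45, SE 0.20, edgeR adjusted p = 0.00346). Angpt1, the activating ligand of Tek made by perivascular cells, had 0.0679 and 0.122 CPM in KO tumours and 0.283 to 0.541 CPM in WT tumours and was too low to test. The other genes called lower were Thbs1 and Thbs2, angiogenesis inhibitors of the thrombospondin family, at -1.98 and -3.19, and Sema3e, a secreted semaphorin, at -0.99, the last lost without KO tumour 1 or WT tumour 1 or 2. These 3 genes fell outside the rule for named genes and were chosen after their values were seen.

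**Figure D4:**
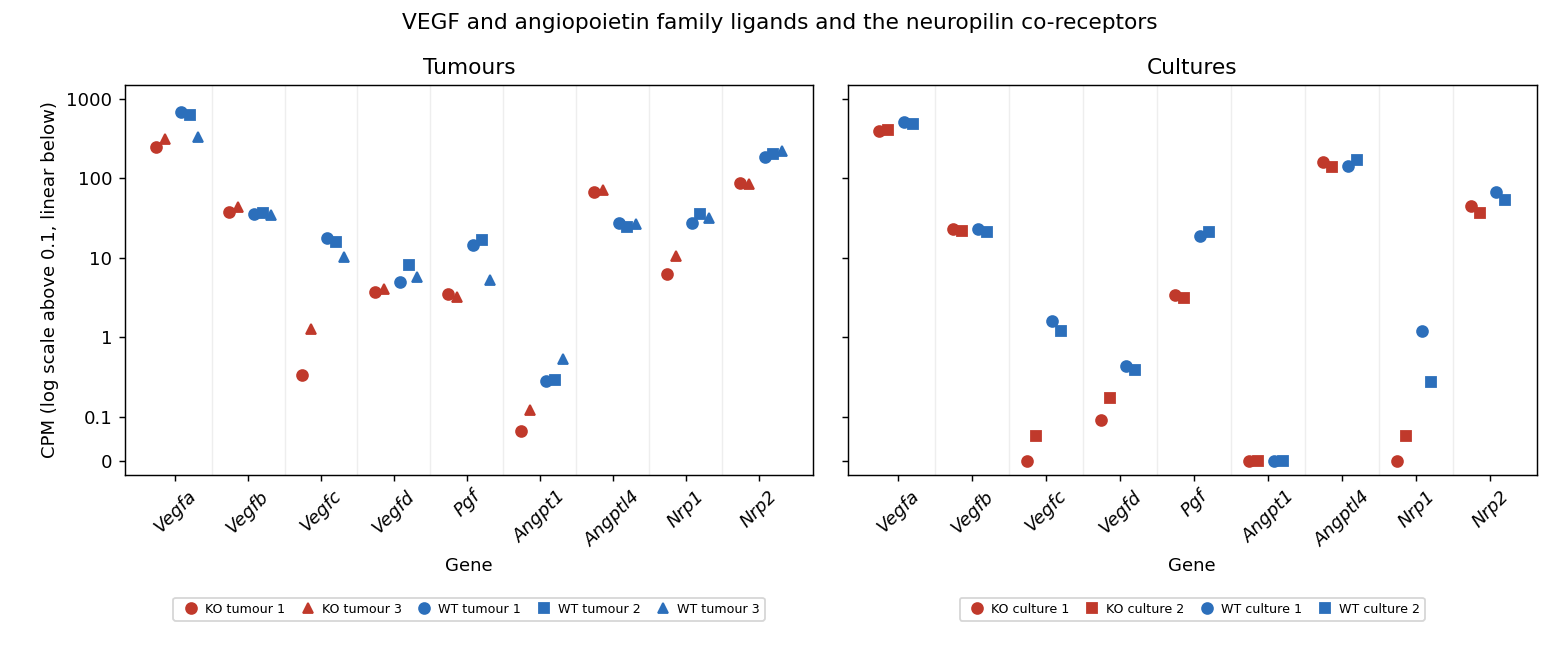
CPM (vertical axis, logarithmic above 0.1 and linear below) of VEGF and angiopoietin family ligands and of the neuropilins in each tumour (left) and each culture (right), with KO in red and WT in blue. Vegfc, Nrp1 and Nrp2 lie lower in KO tumours and Angptl4 lies higher, while Vegfb is nearly level.

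Further endothelial genes were described from lists of the same kind. Of 30 other endothelial genes 28 were tested in tumours, 2 were lower and 3 higher, shares close to the 10.9% and 8.78% of all genes. S1pr1, the sphingosine 1-phosphate receptor of endothelium, had 3.94 and 6.35 CPM in KO tumours, against 10.5, 11.7 and 17.1 CPM in WT tumours (log2 fold change -1.34, SE 0.34, edgeR adjusted p = 0.0368). The call was lost when KO tumour 1 or any WT tumour was left out, with adjusted p from 0.0737 to 0.129. Shank3, named after its values were seen, was at -1.66, with its call lost without the same 4 tumours. The higher genes, Tm4sf1, Procr and Palmd at 0.69, 1.07 and 0.95, were also abundant in cultured cells, where the lowest culture held 52.1 CPM of Procr, 53.4 CPM of Palmd and 2060 CPM of Tm4sf1. The call of Procr was lost without WT tumour 1 or 2 and that of Tm4sf1 without WT tumour 2, while that of Palmd held.

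Of 9 Notch pathway genes tested in tumours, 3 were lower (10.9% of all genes were): Notch1 at -1.07, its ligand Dll1 at -1.03 and its target Nrarp at -0.77 (edgeR adjusted p = 0.0336, 0.0148 and 0.0159). Notch4, the endothelial Notch receptor, had 16.6 and 16.5 CPM in KO tumours, against 13.4, 11.7 and 22.1 CPM in WT tumours, and was not called. The Notch1 call was lost without KO tumour 1 and without each WT tumour (adjusted p from 0.0595 to 0.114), that of Dll1 without KO tumour 1 or WT tumour 2, and that of Nrarp without WT tumour 1 or 2. Of 13 basement membrane genes 3 were lower, Lamb1 at -2.36, Lamc1 at -0.92 and Col18a1 at -0.63, and none was higher, beside the same shares of all genes. The Col18a1 call was lost without KO tumour 1 or WT tumour 1 or 2. Of 8 tested BMP and TGF-beta genes Tgfbr2 and Id1 were higher (8.78% of all genes were), at 0.99 and 1.02. Tgfbr2 was also higher in KO cultures, and the Id1 call was lost without WT tumour 1 or 2. Of 7 leukocyte adhesion genes Itgb1 was lower (10.9% of all genes were) at -0.54, a call lost without KO tumour 3 or WT tumour 1 or 2. Icam1, a partner of VCAM1 in leukocyte arrest, had 96.3 and 126 CPM in KO tumours and 94.9, 119 and 90.9 CPM in WT tumours.

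Other cell types of the tumours were read from their marker lists. Fibroblast markers summed to 453 and 708 CPM in KO tumours, against 1860, 1250 and 3430 CPM in WT tumours, and 4 of 8 tested were lower (Col1a1, Col1a2, Col3a1 and Lum) with none higher, where 10.9% of all genes were lower and 8.78% higher. All 4 calls were lost without KO tumour 1 or WT tumour 1, those of Col3a1 without KO tumour 3 and of Lum without WT tumour 3 as well. KO tumour 1 was the lowest and WT tumour 3 the highest for fibroblast markers, as for most endothelial markers. Pericyte and smooth muscle markers, of cells that wrap vessels, summed to 215 and 173 CPM in KO tumours and 205, 173 and 304 CPM in WT tumours. They overlapped, and Des alone of 12 was lower, at -0.95 (edgeR adjusted p = 0.0384), a call lost without KO tumour 3 and without each WT tumour.

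Macrophage markers summed to 317 and 451 CPM in KO tumours and 263, 291 and 439 CPM in WT tumours, and pan-leukocyte markers to 115 and 232 CPM in KO tumours and 107, 114 and 148 CPM in WT tumours. Neither list had a gene called in tumours. Platelet markers, listed because platelets also carry Selp, Vwf and Mmrn1, summed to 35.4 and 63.0 CPM in KO tumours and 73.5, 67.9 and 74.5 CPM in WT tumours. Both KO tumours were below the WT tumours in platelet markers, and none of the 6 tested was called. Cultures held 53.0 to 66.9 CPM of these, and Pf4, a gene of this list, had 2.04 and 2.32 CPM in KO tumours and 3.29, 3.20 and 7.29 CPM in WT tumours. Haemoglobin and other red cell markers were highest in KO tumour 1, at 45.6 CPM, with 7.33 CPM in KO tumour 3 and 8.05, 3.32 and 12.6 CPM in WT tumours. Of 8 epithelial markers of the cancer cells, Krt8 and Krt19 were higher and Epcam and Sox9 lower in KO tumours. Over all genes 8.78% were higher and 10.9% lower. The call of Sox9 held whichever tumour was left out. That of Krt8 was lost without KO tumour 1 or WT tumour 2, and that of Krt19 without WT tumour 2. That of Epcam was lost without KO tumour 1 or 3 or WT tumour 1 or 2. Epcam and Sox9 were also called lower in KO cultures, while Krt8 and Krt19 were not called there. The part that the make-up of each tumour plays in the endothelial values was not tested.

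**Figure D5:**
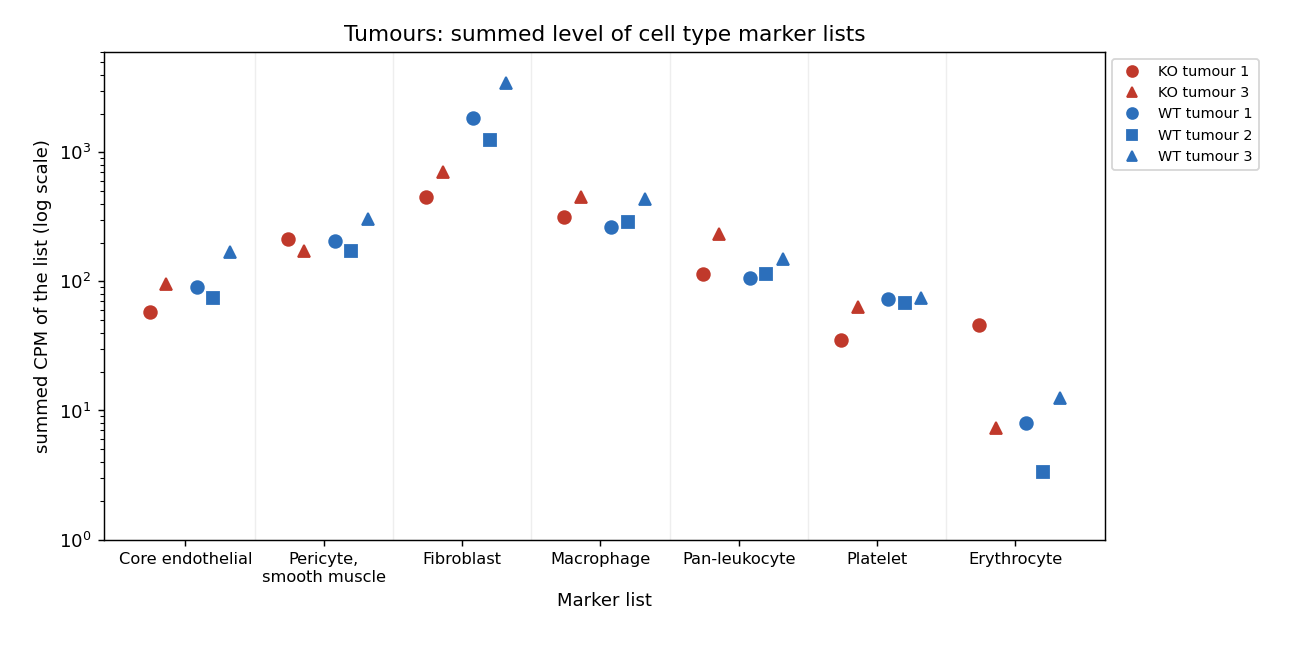
Summed CPM (logarithmic vertical axis) of the core endothelial genes and of marker lists for 6 other cell types in each tumour, with KO in red and WT in blue. Core endothelial and fibroblast sums are lowest in KO tumour 1 and highest in WT tumour 3, fibroblast and platelet sums are lower in both KO tumours, and pericyte, macrophage and pan-leukocyte sums overlap between genotypes.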

How the data were processed

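The series holds bulk poly(A) RNA-seq of 9 libraries. Raw counts per Ensembl gene were used as deposited by the authors, in 1 table for tumours and 1 for cultures. Per the labels' protocols, duplicate molecules were removed by unique molecular identifiers and ERCC spike-in RNA was added. The count tables hold no ERCC row. The submitters' processing notes name fastp 0.23.1, STAR 2.5.2b, Subread 1.5.2, featureCounts and DESeq2 with the GRCm38 (mm10) genome. How strand and multi-mapped reads were handled, and which annotation was counted, is not given in the sources used here. Counts of overlapping genes and close copies are therefore uncertain. Exons of 10 members overlap those of other genes, among them Nos3 (25.2% with Gm15587, opposite strand) and Egfl7 (7.37% with Gm20532, same strand). The deposited normalized and rlog values were not used.

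Tumours and cultures were fitted separately with edgeR 4.0.16 (R 4.3.3): TMM scaling, filterByExpr with a minimum count of 10 and a minimum total of 15, the quasi-likelihood test and Benjamini-Hochberg adjustment over all genes tested, with a threshold of 0.05. The difference of the effects came from 1 fit of all 9 libraries. CPM are TMM-scaled within each setting, SE were taken from the log2 fold change and F, and log2 fold changes are KO over WT. The test was checked on simulated counts. Where a gene had no count in a group, a floor of 3 counts over the group gave the bound. The alternatives were DESeq2 1.42.0, limma-voom (limma 3.58.1), RLE size factors, library totals, other filters, a fold of at least 2, a shared replicate number and leaving out each library.

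The members, marker lists and alternatives were chosen with earlier results of these data known. Any member could be named, beside Itga2, up to 4 genes of each list with the smallest p in tumours, and Vegfa, Angpt1, Nrp1, Notch1, Notch4, Icam1, Pdpn, Epcam, Ptprc and Pf4. Gene positions, exon lengths and symbols are from GENCODE M21, and promoters from RefSeq.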

Additional observations from a re-analysis of the deposited data

Results flagged for a closer look

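Flagged here are 5 genes for which the effect of genotype differed between tumours and cultures. The test was of the difference itself (edgeR, 1 fit of all 9 libraries, adjusted over all genes). It called 5.69% of all 16793 genes, further genes of the marker lists among them, so the 5 are not a full list. Tumours also hold host cells, whose share of these transcripts was not measured. For Cd34 the KO effect in tumours minus that in cultures was 4.01 on the log2 scale (SE 0.92, edgeR adjusted p = 0.0293), where the culture effect was -4.92 and the tumour effect -0.90. For Ptprb it was -1.88 (SE 0.41, edgeR adjusted p = 0.0249), with effects of 0.91 in cultures and -0.95 in tumours. For Rasip1 it was -2.18 (SE 0.53, edgeR adjusted p = 0.038), with effects of 1.52 in cultures and -0.64 in tumours. For Flt4 it was 7.05 (SE 1.19, edgeR adjusted p = 0.00909), a fitted size that depends on the prior count since KO cultures held no count of Flt4. For Angptl4 it was 1.45 (SE 0.20, edgeR adjusted p = 0.00346), with effects of -0.06 in cultures and 1.42 in tumours. The call of Angptl4 held in all 17 alternatives run. Those of Cd34, Ptprb, Rasip1 and Flt4 were lost in 6, 4, 7 and 1 of the 17.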

How the results depend on the processing

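Flt1 was called lower in all 15 alternatives run for tumours and all 13 run for cultures. The 3 members called lower in tumours were 5 without a filter and in 1 fit of all 9 libraries, and 6 with DESeq2 and without KO tumour 1 and WT tumour 3. No member was called higher in tumours, against 1 in each of the first 3 of these and 2 in the last. Leaving out single tumours gave 2 to 6 lower and 0 to 1 higher. Over all genes 3206 calls in tumours became 1832 at a fold of at least 2 and 6715 without KO tumour 1 and WT tumour 3 (1171 to 4143 with single tumours left out). In cultures 3461 calls became 1776 at a fold of at least 2 (2130 to 2985 with single cultures left out), and 2 members called higher became 1 at that fold and 1 in 1 fit (1 to 2 with single cultures left out), while 5 to 6 were lower. The difference between settings had 955 calls, against 1875 without a filter and 1625 with DESeq2 (288 to 1651 with single libraries left out). Its 2 members called lower became 1 with limma-voom (0 to 2), and its 2 called higher became 5 without a filter and 1 with limma-voom (0 to 3).

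With the replicate number as a block, 1428 genes were called in tumours and 7587 in cultures. No label ties samples of the same number to each other. Their deviations correlated at 0.02 in tumours and 0.57 in cultures, and with 2 shared numbers a setting this does not settle whether the numbers pair the samples. Under the block Vwf, Flt1 and Plvap were the members called lower in tumours, and Prox1 was not (edgeR adjusted p = 0.0517).

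Relative to the core, the receptor kinases moved from -1.34 to -0.19 with members under 1 CPM in cultures (-1.63 to -1.16 with single tumours left out). The transcription factors moved from -0.29 to -0.09 with a core of Pecam1 and Cdh5 (-0.46 to -0.11). Tip cell genes moved from 0.29 to 0.48 with that core and to -0.13 with members under 1 CPM in cultures (0.21 to 0.34). Leaving out single tumours gave -0.67 to 0.29 for junction genes, -0.88 to 0.36 for venous adhesion and 0.19 to 2.08 for lymphatic genes.

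Without KO tumour 1 and WT tumour 3, 16 of the 34 members changed sign, to between 0.00 and 0.50, among them Cd34 at 0.09, Ly6c1 at 0.04, Pecam1 at 0.12, Cdh5 at 0.23 and Tie1 at 0.38. Without WT tumour 3, 4 members changed sign (Dll4, Tie1, Aplnr and Sox18, at 0.10 to 0.23), without KO tumour 1 Nos3 and Emcn did (0.07 to 0.08), and without KO tumour 3 Podxl did. With single tumours left out Podxl ran from -1.30 to 0.17 and Tie1 from -0.86 to 0.10. In cultures Notch1 stood at -0.01 on library totals, and with single cultures left out Notch1 ran from -0.18 to 0.23, Angpt2 from -0.14 to 0.23, Angptl4 from -0.17 to 0.07 and Vcam1 from -0.13 to 0.00. The causes were not tested. Genes near or under 1 CPM, such as Prox1, Tek and the selectins, rest on few counts.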

Other observations

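Values of 4 further genes from the lists of other cell types and pathways follow. Lamb1, a laminin chain of the basement membrane, had 24.3 and 44.6 CPM in KO tumours, against 152, 165 and 212 CPM in WT tumours (log2 fold change -2.36, edgeR adjusted p = 0.00478), and was lower in KO cultures too, at -1.04. Tgfbr2, a TGF-beta receptor, had 108 and 103 CPM in KO tumours, against 50.1, 50.3 and 58.1 CPM in WT tumours (log2 fold change 0.99, edgeR adjusted p = 0.00428). Dll1, a Notch ligand, had 32.8 and 35.1 CPM in KO tumours, against 84.8, 66.5 and 56.7 CPM in WT tumours. Ptprc, the leukocyte antigen CD45, had 39.5 and 71.1 CPM in KO tumours, against 29.1, 29.2 and 33.7 CPM in WT tumours, and did not pass (log2 fold change 0.85, edgeR adjusted p = 0.0535). In cultures, which hold no host cells, Ptprc was called higher in KO, at 1.71. Both KO tumours lay outside the range of the WT tumours for each of these genes. That was common, as 27.5% of all genes tested lay below in this way and 25.7% above.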
